A study of Macaca mulatta with 12 samples.

Results

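The TRBV7 family is a group of related variable (V) gene segments of the T cell receptor beta chain (TRB). Its members were taken as every clonotype whose first listed V gene began with TRBV7-, except TRBV7-10. This gave 6 genes (TRBV7-3, TRBV7-4, TRBV7-5, TRBV7-6, TRBV7-7 and TRBV7-9) of the 61 V genes found after infusion, and 1202 to 3756 clonotypes per library of 17061 to 36038 in all. A clonotype was a clone of the deposited tables with its CDR3 nucleotide sequence, and a share is the percent of the sequence counts of a library unless stated otherwise.

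The series holds 12 TRB libraries of rhesus macaques (Macaca mulatta), made from RNA of peripheral blood mononuclear cells. The 8 post-infusion libraries carry the names Amazo, Nebula and Rocket. Each name has a library at day -5 and at day -4, relative to an intended transplant at day 0, and there is 1 further library of Nebula at day 0 and 1 of Amazo at day +3. These are 2, 3 and 7 days after the first infusion of apoptotic donor leukocytes (ADLs, donor white cells fixed so that they die) at day -7, and 2 days after the second at day 1. The 4 baseline libraries carry other animal names. Per the study's methods, the infused animals were nondiabetic and received no graft, shared 1 DRB allele with the donor and differed from it in MHC class I. All of them also received an anti-CD40 antibody, rapamycin, tocilizumab and etanercept, so an effect of ADLs cannot be told apart from that of these agents. The libraries are bulk libraries, in which a change in the number of cells of a clone and a change in RNA per cell cannot be told apart.

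During T cell development a TRBV segment is joined to a diversity (TRBD) and a joining (TRBJ) segment, and the bases at the joint form CDR3, the loop that contacts the bound peptide. The V segment encodes the first codons of CDR3 and the other loops that touch the MHC molecule. The TRBD and TRBJ segments lie in TRBJ1 and TRBJ2 clusters, and either cluster can be used by any V gene. Members of a V family are similar in sequence, so reads that cover little of the V segment can match several of them.

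Total counts ran from 42695 (Nebula day -4) to 556954 (Rocket day -5) after infusion and from 63 to 74 at baseline. The names and the repertoires did not match. On TRBV7 clonotypes alone, the Morisita-Horn index (0 for no shared clonotype, 1 for the same clonotypes at the same shares) was 0.957 to 0.996 over the 6 pairs among Amazo day -5, Amazo day +3, Rocket day -5 and Rocket day -4. These are called the 4-library repertoire below. The index was 0.734 to 0.769 over the 3 pairs of Nebula libraries. It was 0 to 0.00238 over the other 19 pairs, so the library labelled Amazo day -4 stood apart from all others. Day -4 is therefore the only time at which the 3 names held 3 separate repertoires, and results on the Amazo pair compare different repertoires. Libraries of 1 repertoire are not independent samples.

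The clonotypes on which the results turn are shown first. CDR3 is written 5′ to 3′ from the codon of the conserved cysteine, and capitals mark the bases between the end of the V segment and the start of the J segment, which hold the D segment and added bases. Clonotypes 1 to 3 were the largest of the 4-library repertoire, 4 and 5 were the largest of Nebula and of Amazo day -4, and 6 to 8 were leading clonotypes of TRBV7-6 and TRBV7-9. The gene named is the first listed. A further V gene was listed for clonotype 3 in Nebula day 0 (TRBV7-5) and, with TRBV7-7, for clonotype 4 in Nebula day -5 and clonotype 5 in Amazo day -4.
Clonotype 1 (TRBV7-3, TRBD1, TRBJ1-2): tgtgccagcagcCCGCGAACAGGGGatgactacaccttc
Clonotype 2 (TRBV7-4, TRBD1, TRBJ2-2): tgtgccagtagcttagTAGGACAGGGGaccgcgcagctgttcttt
Clonotype 3 (TRBV7-4, TRBD2, TRBJ2-2): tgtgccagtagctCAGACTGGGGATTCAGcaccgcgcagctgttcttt
Clonotype 4 (TRBV7-3, TRBD2, TRBJ2-5): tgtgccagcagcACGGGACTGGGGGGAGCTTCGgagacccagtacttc
Clonotype 5 (TRBV7-3, TRBD2, TRBJ2-5): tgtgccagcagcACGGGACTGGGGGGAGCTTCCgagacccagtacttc
Clonotype 6 (TRBV7-6, no D listed, TRBJ2-3): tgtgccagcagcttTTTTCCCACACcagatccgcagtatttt
Clonotype 7 (TRBV7-9, TRBD1, TRBJ2-7): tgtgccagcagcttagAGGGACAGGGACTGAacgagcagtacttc
Clonotype 8 (TRBV7-6, no D listed, TRBJ2-3): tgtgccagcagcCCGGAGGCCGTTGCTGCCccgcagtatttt

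The family took 6.35% to 10.3% of the counts of the post-infusion libraries. It took 10.3% in Amazo day -5, 10.1% in Amazo day +3, 10.0% in Rocket day -5 and 9.70% in Rocket day -4. It took 6.35%, 6.49% and 6.57% in Nebula at day -5, day -4 and day 0, and 8.07% in Amazo day -4. The 3 repertoires thus did not overlap, and libraries of 1 repertoire lay closer to each other than to any other library. Amazo day -4 is a single library, and the number of other V families for which this held was not counted. The family ranked 3 among the V families in the 4-library repertoire, 4 in Amazo day -4 and 6 in Nebula.

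By counts, the excess of the 4-library repertoire over Nebula shrank without the largest TRBV7 clonotypes. Without the 3 largest TRBV7 clonotypes of each library, the family took 6.58% in Amazo day -5, 6.29% in Amazo day +3, 5.28% in Rocket day -5 and 6.01% in Rocket day -4. The same measure was 5.92%, 5.84% and 6.17% in Nebula at day -5, day -4 and day 0, and 7.45% in Amazo day -4. The order of the repertoires changed with this step, since Amazo day -4 was then highest and the ranges of the other repertoires overlapped. The totals still held the large clonotypes of other V genes. With each clonotype counted once, the family made up 10.65%, 10.79%, 10.81% and 10.42% of clonotypes in the 4-library repertoire, in the order above. It made up 6.35%, 6.63% and 6.64% in Nebula and 9.39% in Amazo day -4, so the repertoires kept the order of the shares by counts.

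**Figure D1:**
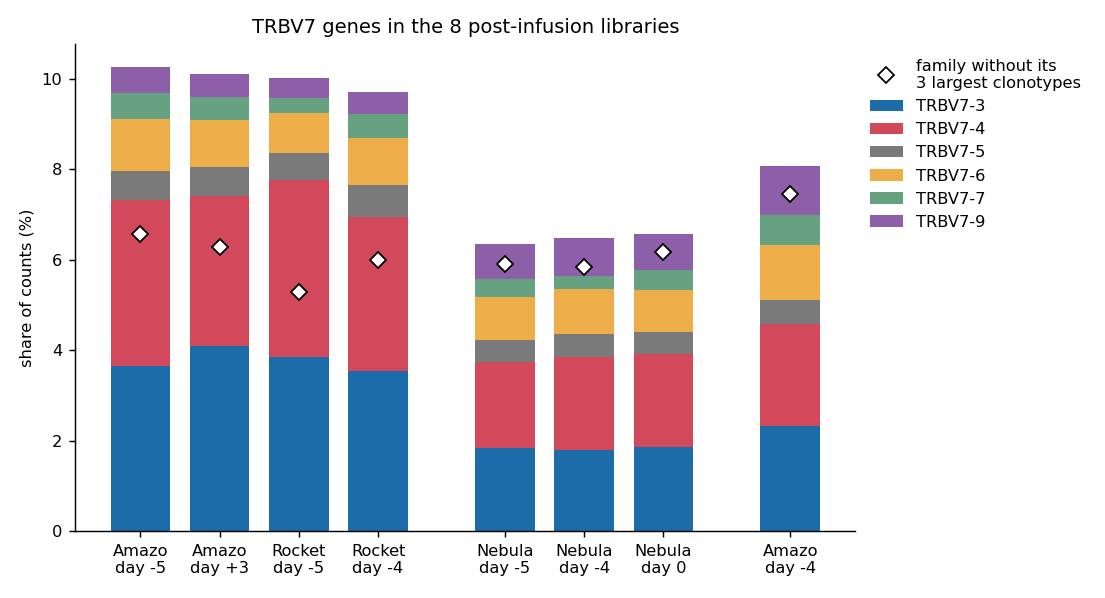
Stacked bars show the percent of counts of each TRBV7 gene in the 8 post-infusion libraries, grouped by repertoire, and open diamonds the family without its 3 largest clonotypes. The bars of the 4-library repertoire reach 9.70% to 10.3%, while their diamonds lie at 5.28% to 6.58%, near those of Nebula.

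TRBV7-3 and TRBV7-4 were the main genes of the family. TRBV7-3 took 3.65%, 4.11%, 3.86% and 3.55% of counts in Amazo day -5, Amazo day +3, Rocket day -5 and Rocket day -4, 1.85%, 1.80% and 1.86% in Nebula at day -5, day -4 and day 0, and 2.33% in Amazo day -4. TRBV7-4 took 3.67%, 3.31%, 3.91% and 3.41% in the 4-library repertoire, 1.90%, 2.05% and 2.07% in Nebula and 2.25% in Amazo day -4, in the same order. Both were highest in the 4-library repertoire and lowest in Nebula. TRBV7-3 was above TRBV7-4 in 3 of 8 libraries, so these neighbours had no fixed order. Each of them exceeded the other 4 genes in 8 of 8 libraries, with no overlap of ranges.

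TRBV7-6 came next, at 0.888% to 1.23% of counts, above TRBV7-5, TRBV7-7 and TRBV7-9 in 8 of 8 libraries. TRBV7-9 took 1.08% in Amazo day -4, 0.766% to 0.841% in Nebula and 0.4501% to 0.559% in the 4-library repertoire. This order of repertoires was unlike that of TRBV7-3 and TRBV7-4. TRBV7-5 took 0.478% to 0.688% and TRBV7-7 0.290% to 0.646%. The ranges of TRBV7-5, TRBV7-7 and TRBV7-9 overlapped. Levels of TRBV7-7 were uncertain, because 33.9% to 79.0% of its counts listed a further V gene. The same held for 5.75% to 30.3% of the counts of TRBV7-3, mostly with TRBV7-7, and for at most 9.93% of the counts of the other 4 genes.

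Among V genes outside the family, TRBV12-2 (Spearman rho 0.83), TRBV21-1 (0.83) and TRBV4-2 (0.81) had shares most like those of the family over the 8 libraries. These libraries hold 3 repertoires, so the likeness is a description only.

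Clonotype 1, a TRBV7-3 clonotype joined to TRBJ1-2, was the largest of the family in the 4-library repertoire. It took 1.66% of counts in Amazo day -5 (95% Wilson interval 1.61 to 1.70), 1.99% in Amazo day +3 (1.94 to 2.04), 2.09% in Rocket day -5 (2.05 to 2.13) and 1.64% in Rocket day -4 (1.60 to 1.69). It made up 45.3% to 54.1% of all TRBV7-3 counts there. Outside that repertoire it had 4 counts in Nebula day -5, 1 in Amazo day -4 and 0 in the other Nebula libraries.

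Clonotypes 2 and 3 were TRBV7-4 clonotypes joined to TRBJ2-2. Clonotype 2 took 1.38%, 1.03%, 1.76% and 1.40% of counts in Amazo day -5, Amazo day +3, Rocket day -5 and Rocket day -4. Clonotype 3 took 0.639%, 0.793%, 0.885% and 0.655% in the same libraries. Each had at most 2 counts in any library of the other repertoires. The 3 largest TRBV7-4 clonotypes held 60.0% to 73.9% of the counts of the gene in the 4-library repertoire, 10.7% in Amazo day -4 and 4.43% to 8.35% in Nebula.

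The other repertoires had smaller TRBV7 clonotypes. Clonotype 4 took 0.211%, 0.349% and 0.210% of counts in Nebula at day -5, day -4 and day 0. Clonotype 7, on TRBV7-9, took 0.135%, 0.209% and 0.129% in the same libraries. Neither was seen in any other library. Clonotypes 5 and 8 took 0.299% and 0.208% of Amazo day -4. They had 14 and 24 counts in Amazo day -5, and 0 in the other 6 post-infusion libraries. Clonotype 6, on TRBV7-6, took 0.197%, 0.149%, 0.212% and 0.200% in Amazo day -5, Amazo day +3, Rocket day -5 and Rocket day -4, with 0 counts elsewhere.

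The remaining named clonotypes were smaller. Clonotype 10, on TRBV7-5 with TRBJ1-4, took 0.0584%, 0.0914% and 0.0546% of counts in Nebula at day -5, day -4 and day 0. The day -4 value rests on 39 counts, and the other values lay below the largest TRBV7-5 clonotype of Rocket day -5 (0.0749%) and Rocket day -4 (0.0697%). Clonotype 12, with TRBJ2-2, took 0.0373%, 0.0351% and 0.0438% in the same Nebula libraries. Its V gene was not stable, since TRBV7-7 was listed first at day 0 but TRBV7-3 at day -5 and day -4. Clonotype 11, on TRBV7-4 with TRBJ2-7, went from 0.0887% at day -5 to 0.0468% at day -4 and 0.0271% at day 0, below the share at which clonotypes were tested. Clonotype 9, on TRBV7-4 with TRBJ2-2, took 0.107% of Amazo day -4 and had 22 counts in Amazo day -5. None of the 12 clonotypes was seen at baseline, where a count of 0 allows a share of up to 4.05% to 4.76% (3 counts).

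**Figure D2:**
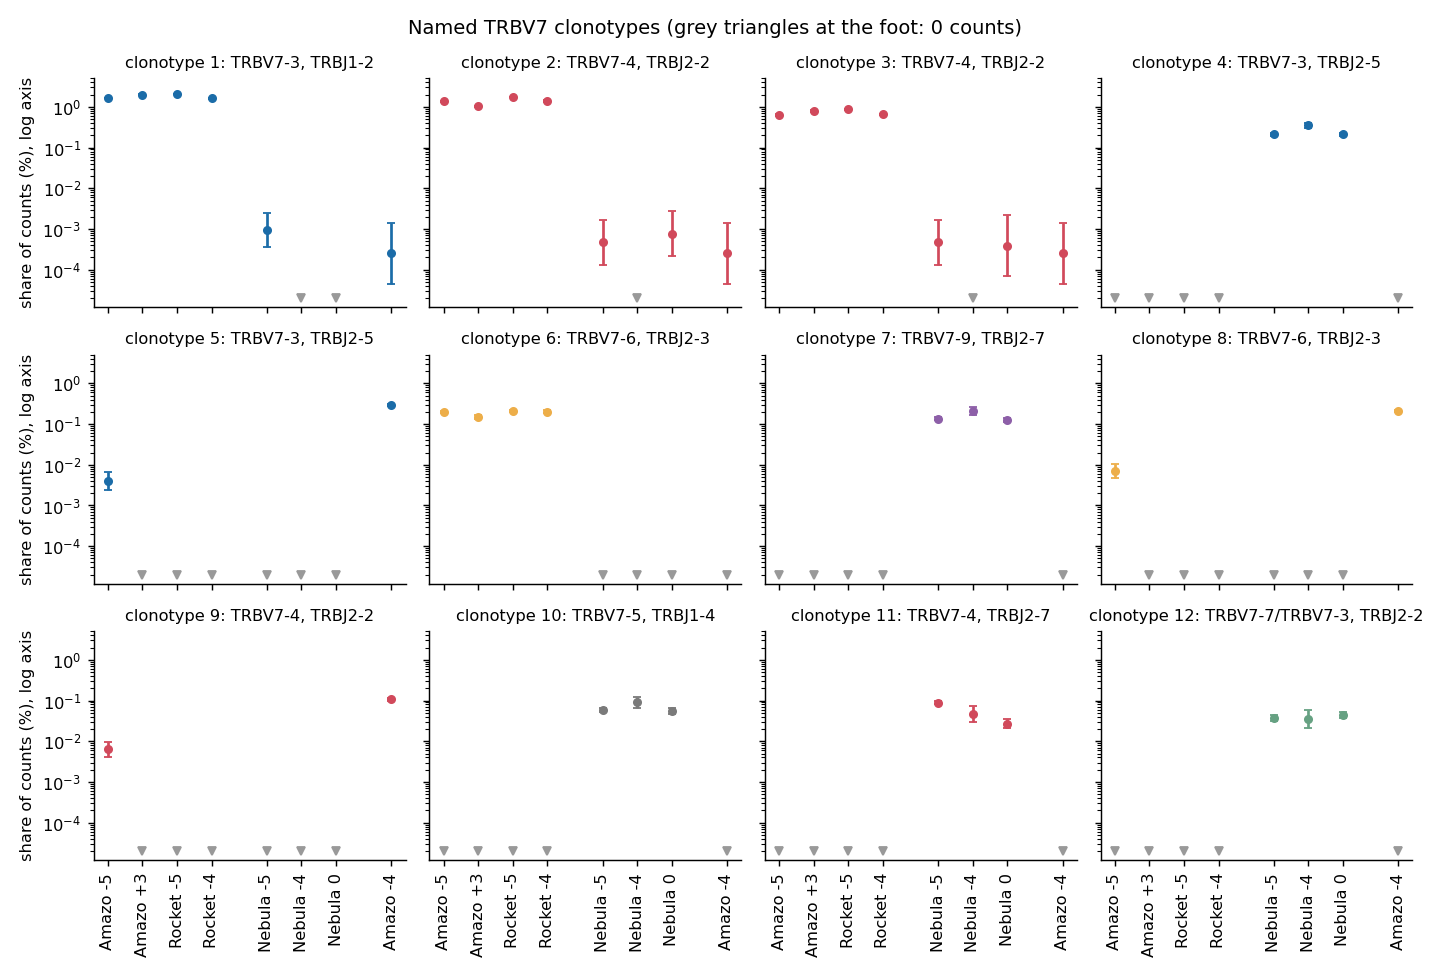
Each panel shows 1 of the 12 named TRBV7 clonotypes, with its percent of counts on a log axis in the 8 post-infusion libraries and 95% Wilson intervals; grey triangles mark 0 counts. Clonotypes 1 to 3 and 6 are high in the 4-library repertoire, and clonotypes 5, 8 and 9 are high in Amazo day -4 and low in Amazo day -5.

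Clonotypes of at least 0.1% held a large part of the family in the 4-library repertoire, with 5 or 6 clonotypes holding 39.6% to 51.8% of TRBV7 counts. Over other V genes, clonotypes of that size held 40.5% to 55.1% in the same libraries. In Nebula 2 such clonotypes held 5.16% to 8.59% of TRBV7 counts, against 6.26% to 10.9% over other V genes. In Amazo day -4 the family was less dominated by large clonotypes than other V genes, with 7.61% against 23.4%.

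Clonotypes 4 and 5 differed by 1 base. They were the largest TRBV7 clonotypes of separate repertoires, with the same V, D and J genes and 48 bases each, of which 47 were identical. Between V and J 20 of 21 bases were identical. The difference was G33C from clonotype 4 to clonotype 5, counted from 1 at the first CDR3 base, and did not change the encoded amino acids. Clonotype 4 had 0 counts in Amazo day -4, and clonotype 5 had 0 counts in the 3 Nebula libraries.

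Such pairs were few between repertoires. Of 2444 TRBV7 clonotypes in Amazo day -4, 23 lay 1 base from a TRBV7 clonotype of Nebula, or 0.941%, against 1.92% of other V genes. The sets searched in Nebula held 4872 TRBV7 clonotypes and 70167 of other V genes, so these percents are not a like comparison. These 23 had a median of 6 bases between V and J, against 13 over all TRBV7 clonotypes of the library. Only 1 of the 23 had 15 or more bases there. Over other V genes 21 of 454 such clonotypes did, with the same medians of 6 and 13.

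Across the 3 day -4 libraries, 15 of 6634 combinations of TRBV7 gene, J gene and CDR3 amino acids occurred in more than 1 library, or 0.226%. The share was 0.252% over other V genes (167 of 66373). TRBV7-4 gave 8 of the 15 combinations, TRBV7-3 gave 4, and TRBV7-5, TRBV7-6 and TRBV7-9 gave 1 each. In 8 of the 15 the nucleotide sequences differed. In the other 7 the libraries shared an identical sequence, as in 57 of the 167 over other V genes. Of these 7 TRBV7 combinations, 6 had a single count in 1 of the libraries, clonotypes 1 to 3 among them. These single counts stood beside up to 4269 counts in the other library. The remaining combination, on TRBV7-6 with TRBJ1-1, had 5 counts in Amazo day -4 and 4 in Rocket day -4.

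The ninth base of CDR3, still within the V segment, separated the repertoires for TRBV7-4 and for none of the other 5 genes. The most frequent CDR3 starts of this gene differed by C9T, and both encode the same amino acids.
Start with C at base 9: tgtgccagcagc
Start with T at base 9: tgtgccagtagc
Productive TRBV7-4 clonotypes with 1 V gene listed were counted. Their V segment had to reach at least base 12, and their bases before base 9 had to match these starts. T was found in 95.2% of 683 in Amazo day -5 and 99.1% of 450 in Amazo day +3. It was found in 100% of 302 in Rocket day -5 and 98.9% of 636 in Rocket day -4. T was found in 25.0% of 432, 25.2% of 290 and 25.6% of 493 in Nebula at day -5, day -4 and day 0, and in 6.65% of 466 in Amazo day -4. The 3 repertoires did not overlap. The levels within Nebula differed by under 1 percentage point over 3 libraries.

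In the other 5 genes T at that base was found in 0% to 1.61% of clonotypes in each library. The T share of TRBV7-4 changed little when clonotypes also seen in another repertoire were left out (6.05% in Amazo day -4, 96.4% in Amazo day -5). With at least 2 counts it was 5.94% in Amazo day -4 and 21.8% to 25.4% in Nebula. The reference assigned every clonotype of each gene to a single allele name, so these starts carried no name of their own. Over all productive TRBV7-4 clonotypes, the full start with T made up 78.9% to 83.1% in the 4-library repertoire, 20.5% to 21.2% in Nebula and 5.50% in Amazo day -4. Clonotypes 2 and 3 carried T, and clonotypes 9 and 11 carried C.

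**Figure D3:**
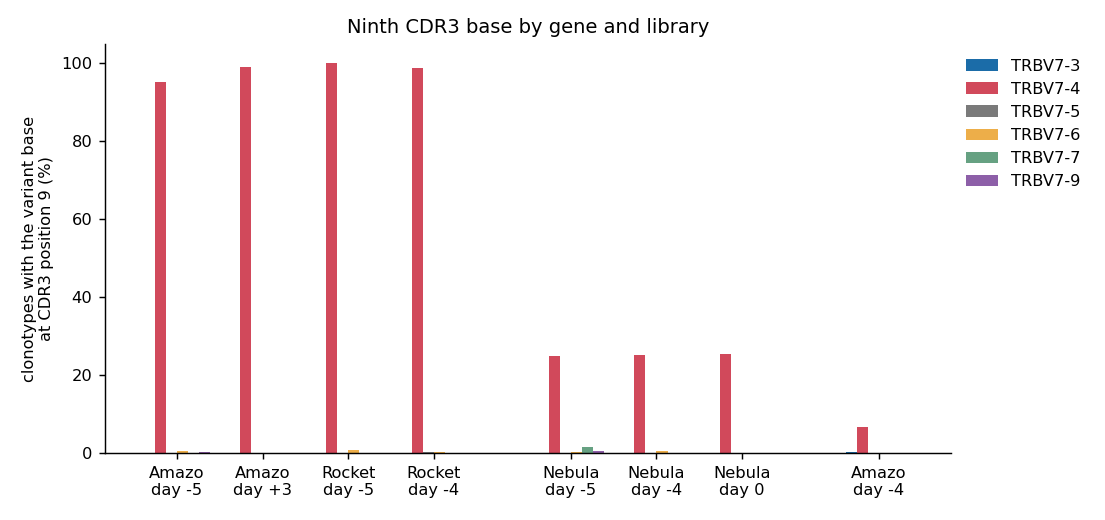
Bars show, for each TRBV7 gene and post-infusion library, the percent of productive clonotypes with T (the variant base) at CDR3 position 9. The clonotypes met the conditions given in the text. Bars of TRBV7-4 stand at 95.2% to 100% in the 4-library repertoire, 25.0% to 25.6% in Nebula and 6.65% in Amazo day -4, while those of the other genes stay at or below 1.61%.

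TRBV7 clonotypes used the TRBJ2 cluster more often than clonotypes of other V genes in 8 of 8 libraries. Each clonotype was counted once. The TRBJ2 share was 68.7%, 70.8%, 70.7% and 68.3% in Amazo day -5, Amazo day +3, Rocket day -5 and Rocket day -4, 65.3%, 65.6% and 63.5% in Nebula at day -5, day -4 and day 0, and 67.7% in Amazo day -4. Other V genes gave 63.9%, 63.0%, 63.7% and 63.1%, then 56.8%, 57.1% and 56.8%, and then 61.4%, in the same order. The difference was 4.78 to 8.57 percentage points. Over the 3 day -4 libraries the family averaged 67.2% ± 1.42 and the other V genes 60.5% ± 3.12 (SD, n = 3), a difference of 6.64 ± 1.70 (SD). The exact two-sided sign-flip permutation test gave p = 0.25, the smallest that 3 libraries allow.

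The family ranked 3 to 6 in TRBJ2 share among the 19 to 22 V families with at least 200 clonotypes, so it was not the highest in any library. TRBV7-4 had the highest share of the 6 genes in 7 of 8 libraries, at 68.8% to 76.0% of clonotypes over all 8. The exception was Amazo day -4, with 73.0% against 73.5% for TRBV7-7. Over 6 genes and 8 libraries, 46 of 48 values lay above that of other V genes. The exceptions were TRBV7-5 in Nebula day -4 (50.5%, 101 clonotypes) and in Amazo day -5 (63.7% against 63.9%). Some of these libraries share a repertoire, and the same count was not made for V genes outside the family.

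Weighted by counts, the direction differed between repertoires. The TRBJ2 share of the family was then 5.40 to 9.25 percentage points below that of other V genes in the 4-library repertoire, and 9.90 to 13.8 above in Nebula and Amazo day -4. Clonotype 1, with TRBJ1-2, was the largest of the family in the former. There TRBJ2 held 30.2% to 33.5% of TRBV7-3 counts but 83.9% to 86.9% of TRBV7-4 counts.

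Single J genes moved in the same direction in every library for 7 of 13. How many do so for another V family was not counted, and some of the 8 libraries share a repertoire. TRBJ2-7 (2.49 percentage points above other V genes on average, range 1.27 to 5.49), TRBJ2-5 (1.60, range 0.462 to 4.21) and TRBJ2-3 (1.10, range 0.331 to 2.11) were used more often by TRBV7 clonotypes in 8 of 8 libraries. TRBJ1-4 showed the largest deficit, at -3.08 percentage points on average (range -4.52 to -2.13). TRBJ1-2, TRBJ1-3 and TRBJ1-5 were also lower in 8 of 8 libraries, by averages of -1.21, -1.09 and -0.952. Not all TRBJ2 genes were favoured, since TRBJ2-4 was lower in 7 of 8 libraries (-0.761 on average).

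**Figure D4:**
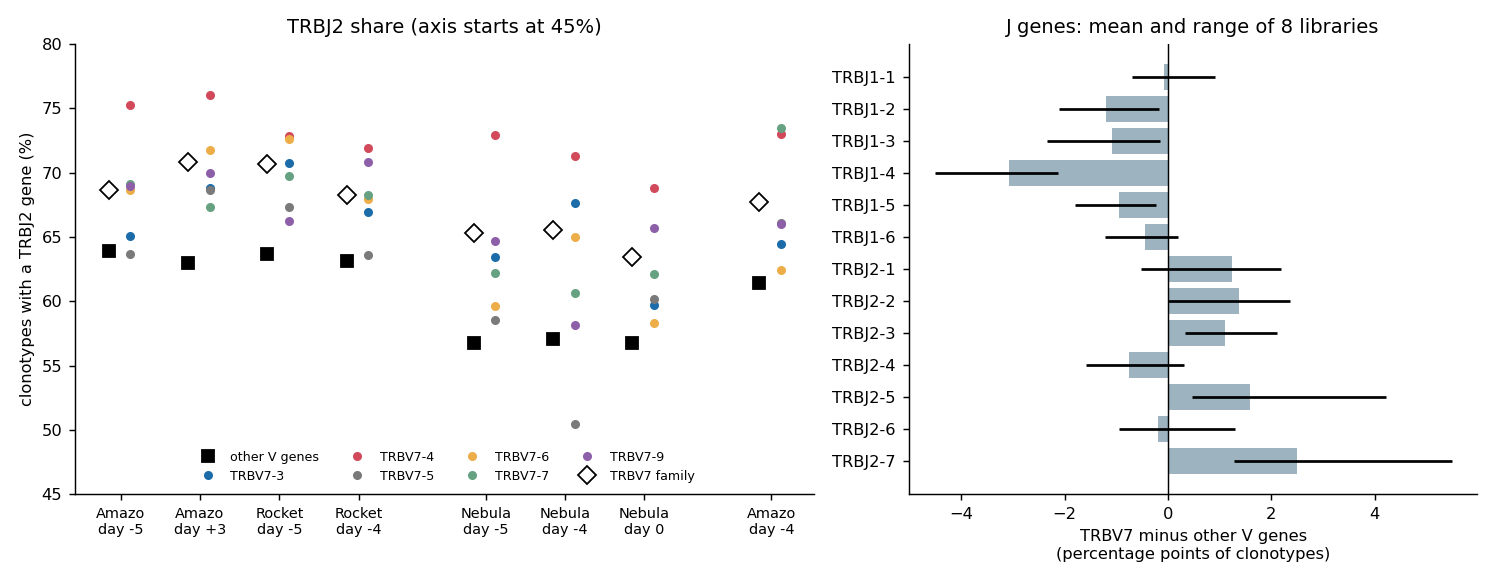
Left, percent of clonotypes with a TRBJ2 gene in each post-infusion library for the TRBV7 family (open diamonds), its genes (coloured points) and other V genes (squares), on an axis that starts at 45%. Right, TRBV7 minus other V genes for each J gene, as the mean (bar) and range (line) of 8 libraries; the diamond is above the square in every library, and TRBJ1-4 and TRBJ2-7 lie farthest from 0.

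CDR3 of productive TRBV7 clonotypes was slightly longer than that of other V genes. The mean length was 14.57, 14.62, 14.69 and 14.55 codons in Amazo day -5, Amazo day +3, Rocket day -5 and Rocket day -4, 14.70, 14.48 and 14.60 in Nebula at day -5, day -4 and day 0, and 14.66 in Amazo day -4. Other V genes had 14.38 to 14.55 codons, and the family was longer in 8 of 8 libraries, by 0.0791 to 0.241 codons. At day -4 the difference was 0.142 ± 0.0854 codons (SD, n = 3, exact sign-flip permutation p = 0.25). The SD over single TRBV7 clonotypes within a library was 1.65 to 1.76 codons, so the shift was small beside the spread of lengths.

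The shift lay at both sides of the distribution. CDR3 of 12 codons made up 5.26% to 6.35% of TRBV7 clonotypes and 6.83% to 7.96% of the others, with no overlap over the 8 libraries. The rarer CDR3 of 10 codons also had no overlap, at 0.16% to 0.41% and 0.60% to 0.92%. CDR3 of 15 codons made up 24.1% to 26.2% and 23.1% to 24.3%, with a small overlap. Clonotype 1, with 13 codons, was shorter than the family mean, and by counts TRBV7-3 averaged 13.6 to 13.7 codons in the 4-library repertoire and 14.6 to 15.0 in the other libraries.

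**Figure D5:**
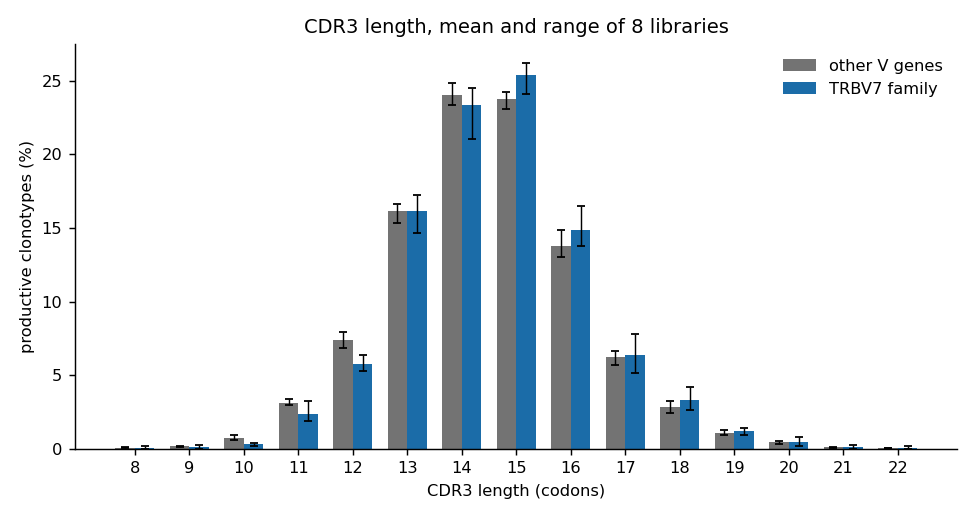
Bars show the mean percent of productive clonotypes at each CDR3 length in codons over the 8 post-infusion libraries for the TRBV7 family and other V genes, and error bars the lowest and highest library. The ranges are apart at 10 and at 12 codons, where the family is lower.

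Clonotypes that are out of frame or carry a stop codon cannot give a chain and are called non-productive. They made up 7.57% to 11.7% of TRBV7 clonotypes and 5.22% to 11.1% of the others, higher in the family in 7 of 8 libraries. Rocket day -5 was the exception, with 11.1% in both. At day -4 the difference was 1.90 ± 0.714 percentage points (SD, n = 3, exact sign-flip permutation p = 0.25). TRBV7-5 had the highest share of the 6 genes in 6 of 8 libraries, from 13.9% to 19.1%. In Amazo day -5 and Rocket day -4 TRBV7-9 was higher, with 12.2% against 9.74% and 13.5% against 12.9%. TRBV7-7 had 1.52% to 7.23%.

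The comparison of day -5 with day -4 asks whether T cells of the family expanded and contracted after the first ADL infusion. The family averaged 8.88% ± 2.19 of counts at day -5 and 8.09% ± 1.61 on the next day (SD, n = 3). Amazo and Rocket share a repertoire at day -5, so the day -5 spreads here and below do not rest on 3 independent samples. The pair labelled Amazo had 10.3% and then 8.07%, the Nebula pair had 6.35% and then 6.49%, and the Rocket pair had 10.0% and then 9.70%. The mean difference was -0.789 percentage points with an SD of 1.24 over pairs (exact sign-flip permutation p = 0.5). Without the Amazo pair it was -0.0885. Without the 3 largest TRBV7 clonotypes of each library it turned to 0.508.

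At the level of genes, none of the 6 TRBV7 genes passed the quasi-likelihood test of edgeR at an adjusted p of 0.05, against a background of 0% of 57 V genes tested. None had an unadjusted p below 0.05, and DESeq2 also gave 0 TRBV7 genes adjusted and 0 unadjusted. TRBV7-3 and TRBV7-4 had log2 fold changes of -0.36 ± 0.23 and -0.35 ± 0.26 (SE, edgeR adjusted p = 0.627 and 0.648), and TRBV7-9 of 0.30 ± 0.28 (SE, edgeR adjusted p = 0.672). TRBV7-5, TRBV7-6 and TRBV7-7 lay between -0.06 and 0.06. Without the Amazo pair, whose libraries hold different repertoires, TRBV7-3, TRBV7-4 and TRBV7-9 had log2 fold changes of -0.16, -0.13 and 0.02. TRBV7-5, TRBV7-6 and TRBV7-7 then had 0.09, 0.08 and 0.10.

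The number of TRBV7 clonotypes was compared at 42695 counts, the depth of the smallest library. It was 1692, 1227 and 1061 in Amazo, Nebula and Rocket at day -5, and 1530, 1202 and 1612 at day -4. The number fell in the Amazo and Nebula pairs and rose in the Rocket pair. The mean was 1327 ± 327 and 1448 ± 217 (SD, n = 3, exact sign-flip permutation p = 1). The difference of 121 turned to -93.4 without Rocket and to -36.3 at full depth.

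Single clonotypes of at least 0.1% in either library were then compared between libraries with Fisher's exact test, and p-values were adjusted over the clonotypes of all V genes. Each test compares 2 libraries, not conditions. In Rocket from day -5 to day -4, 0 of 6 TRBV7 clonotypes contracted or expanded by 2-fold, against a background of 1.92% contracted and 0% expanded of 52. Where the fold was left aside, 4 passed as lower and 1 as higher, but the share of all 52 that passed in this way was not counted. The median log2 ratio was -0.34 over the TRBV7 clonotypes and -0.29 over all 52. Clonotypes 1, 2 and 3 were lower by 1.27-fold, 1.26-fold and 1.35-fold, with log2 ratios of -0.35, -0.34 and -0.43. Clonotype 6 did not pass (log2 ratio -0.08, 95% exact interval -0.24 to 0.07, Fisher adjusted p = 0.297).

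In Nebula 2 TRBV7 clonotypes were tested from day -5 to day -4 and 0 passed, against a background of 0% contracted and 8% expanded of 25. Clonotypes 4 and 7 were 1.65-fold and 1.55-fold higher at day -4, under the 2-fold limit, with log2 ratios of 0.72 (95% exact interval 0.46 to 0.97) and 0.63 (0.29 to 0.95). Between day -5 and day 0 neither passed at any fold, with log2 ratios of -0.01 (-0.16 to 0.15) and -0.07 (-0.27 to 0.13). At that time 0 of 2 passed, against 8.7% contracted and 0% expanded of 23. The day -4 library was the shallowest of the 8, with 149 and 89 counts of these clonotypes.

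In the libraries labelled Amazo, 5 of 8 TRBV7 clonotypes contracted and 3 expanded from day -5 to day -4, against a background of 58% contracted and 42% expanded of 81. Every clonotype tested thus changed, within the family and outside it. Clonotype 1 went from 5764 counts to 1, a log2 ratio of -12.67 with a 95% exact interval of -17.97 to -10.19, and clonotype 6 from 687 counts to 0, at least 258-fold lower. Clonotype 5 went from 14 counts to 1173, a log2 ratio of 6.22 (5.46 to 7.09). From day -5 to day +3, where the labels share a repertoire, 0 of 5 passed in either direction, against 10.2% contracted and 0% expanded of 49. There clonotype 2 was 1.35-fold lower and clonotypes 1 and 3 were 1.20-fold and 1.24-fold higher.

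Against baseline the family could be compared only coarsely. It had 8 of 73, 5 of 63, 6 of 74 and 0 of 70 counts in baseline libraries 1 to 4, or 10.96% (95% Wilson interval 5.66 to 20.2), 7.94% (3.44 to 17.3), 8.11% (3.77 to 16.6) and 0%, which allows up to 4.29%. The baseline range covered that of the post-infusion libraries. The mean was 6.75% ± 4.71 (SD, n = 4), 2.12 percentage points below day -5 (exact permutation p = 0.657) and 1.34 below day -4 (exact permutation p = 0.8286). Both differences turned without baseline library 4, to -0.125 and -0.915.

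TRBV7-6 held 13 of the 19 baseline counts of the family, with 4, 4, 5 and 0 counts. TRBV7-4 had 3, 0, 1 and 0 counts and TRBV7-3 had 1, 1, 0 and 0. The order at baseline thus differed from the order after infusion, where TRBV7-6 came after TRBV7-3 and TRBV7-4. But the baseline libraries were far shallower and carry other animal names, and depth, animal and time cannot be told apart. At baseline 25%, 40% and 83.3% of TRBV7 counts listed a further V gene in libraries 1 to 3, against 4.94% to 13.6% after infusion.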

How the data were processed

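The authors made cDNA from polyadenylated blood cell RNA by template switching, amplified the VDJ region with a constant region primer, sequenced it on a MiSeq, used Trimmomatic to trim the reads and built the clone tables in MiXCR at its defaults from known rhesus TRB segments. The deposited counts are whole numbers of sequences per clone and library, not normalized. The study's methods describe a clone threshold of 0.5% and collapsing by molecular barcode. More than 99% of the clones in each post-infusion table lay below that threshold, and no table had a barcode column. No count was collapsed or removed here, and whether the deposited counts had already been collapsed could not be told. Any copies made by PCR that remain are not independent molecules, so intervals, floors and Fisher tests cover counting error only. Chromosome positions and germline V sequences were not used here.

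V and J genes were the first listed. Day -5 and day -4 were paired by animal name. Deviations from the group means over V genes correlated at 0.855 for Nebula and 0.924 for Rocket but at -0.0444 for Amazo. Pairing rests on the labels' animal names. Gene counts were tested with edgeR 4.0.16 in R 4.3.3 (TMM, at least 10 counts in at least 3 libraries, animal as block, Benjamini-Hochberg). DESeq2 1.42.0 was an alternative. Single values were tested by exact two-sided permutation, which cannot go below p = 0.25 with 3 pairs and p = 0.0286 with 4 against 3 libraries. Clonotypes of at least 0.1% were called at an adjusted p below 0.05 and 2-fold. Wilson intervals are at 95%. Each count test was first run on simulated data. Named clonotypes were the 3 largest of the family per post-infusion library, the largest per gene, and up to 2 per direction with the largest called fold in each pair. Other steps used Python 3.11.15, pandas 2.3.3 and scipy 1.17.1. Alternatives were other row filters, V assignments, weights, thresholds, folds and scalings, no block and leaving out each library or name in turn. The members and lists were chosen with earlier results of these data known. P-values other than those of Fisher's exact test measure the spread between these libraries, some of which share a repertoire.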

Additional observations from a re-analysis of the deposited data

How the results depend on the processing

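Over 18 results and 126 alternatives, 110 changed neither direction nor call (for counts, stayed within 1.5 times), 10 moved and 6 reversed. The sign-flip tests cannot pass the threshold with 3 pairs, so their calls could not change. The share difference of the family between day -4 and day -5 reversed to 0.508 percentage points without the 3 largest TRBV7 clonotypes, an alternative chosen after seeing the data, and ran from -1.25 to -0.0885 with 1 animal name left out. The differences from baseline reversed without baseline library 4 and ran from -0.125 to 3.53 at day -5 and from -0.915 to 2.74 at day -4 with 1 library left out. The difference in clonotypes at equal depth reversed at full depth (-36.3) and with at least 2 counts (-42.2), and ran from -93.4 to 263 with 1 name left out. For the TRBJ2 share this range was 5.71 to 7.38, for CDR3 length 0.0931 to 0.168 and for the non-productive share 1.68 to 2.32. With no replicate block the pairing of names was dropped, and the share difference of -0.789 gave an exact permutation p = 0.6, that of 121 clonotypes p = 0.8, and edgeR 0 TRBV7 genes; the block changed no call. No alternative called a TRBV7 gene, while edgeR called 4 other V genes without Amazo and 1 without Nebula.

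At a selection threshold of 0.05%, 6 TRBV7 clonotypes expanded in the Amazo pair, 2 expanded in Nebula by day -4 and 1 contracted by day 0. At 0.5%, 3 contracted and 0 expanded in the Amazo pair. With no minimum fold, 2 expanded in Nebula by day -4, 4 contracted and 1 expanded in Rocket, and 2 contracted and 3 expanded in Amazo by day +3. The share called over all V genes was not counted at these settings. These counts therefore show how the calls depend on the settings, not how the family differs from other V genes. Counts of 0 at baseline limit every comparison with it. Clonotypes 1 base from one of at least 10 times their count made up 0.166% to 8.13% of TRBV7 clonotypes per library, and leaving them out (chosen after seeing the data) reversed none of the 4 results tried. The cause of the other changes was not tested.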
